A study of Mus musculus with 2 samples.

Results

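The genes of the major histocompatibility complex (MHC) and of antigen processing were examined in mouse back skin after mechanical stretch. The members were every gene symbol starting with H2-, the name of the mouse MHC, together with B2m, Tap1, Tap2, Tapbp, Psmb8, Psmb9, Psmb10, Cd74, Ciita and Nlrc5. This rule took 53 of 24421 gene symbols in the count table, of which 43 are H2 symbols. They comprised 3 classical class I genes, 29 non-classical class I genes, 10 class II genes, 7 genes of class I assembly, the class II invariant chain Cd74, 2 transactivators and H2-Ke6, which encodes a steroid dehydrogenase and is not an MHC molecule.

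The RNA came from the whole thickness of back skin of wild-type C57BL6/J mice. Skin stretched for 5 days from an initial strain of 33%, which per the methods was raised a little each day, was compared with non-stretched skin at day 5, with 1 library for each condition, and how many animals went into each library is not given in the sources used here. Per the methods, the mice were female, 8 weeks old and in telogen, the resting phase of the hair cycle. The control library held 14152379 counts and the stretched library 11648655. There were no replicates, so replicate error could not be set against any difference and p-values are not given. Each ratio has a 95% Clopper-Pearson interval that covers counting error only, so it compares these libraries and not the conditions.

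Class I molecules are found on nearly all nucleated cells and present peptides from inside the cell to CD8 T cells. They pair a polymorphic heavy chain with beta-2-microglobulin (B2m), and their peptides are cut by the proteasome, pumped into the endoplasmic reticulum by TAP and loaded with the help of tapasin. Non-classical class I molecules resemble them in sequence, vary less between individuals and often have narrower roles. Class II molecules are carried mainly by macrophages, dendritic cells, Langerhans cells and B cells. They present peptides from the endosome to CD4 T cells, after the invariant chain has been removed with the help of the DM molecule.

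The class I heavy chains are close copies, and this limits what a read can tell. A stretch of 76 bases, the read length, is shown because H2-K1, H2-D1 and many of the non-classical genes hold it with few or no mismatches. It lies in exon 4 of H2-K1, in the coding sequence at chr17:33997438-33997513 on the minus strand of mm10, in the exon that encodes the alpha-3 domain. Capitals mark bases that differ from H2-K1, and sequences are from GENCODE M21 transcripts.
H2-K1: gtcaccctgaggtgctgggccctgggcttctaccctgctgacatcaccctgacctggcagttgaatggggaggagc
H2-Q10: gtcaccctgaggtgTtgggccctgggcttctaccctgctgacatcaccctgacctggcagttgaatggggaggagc
H2-Q4: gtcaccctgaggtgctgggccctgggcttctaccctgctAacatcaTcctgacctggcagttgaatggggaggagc
H2-Q5: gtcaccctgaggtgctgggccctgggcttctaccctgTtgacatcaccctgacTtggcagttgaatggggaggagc
H2-T10: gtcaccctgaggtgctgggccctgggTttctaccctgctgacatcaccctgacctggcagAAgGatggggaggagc
The stretch of H2-K1 was present without a mismatch in H2-D1, H2-T23, H2-Q1 and H2-Bl. H2-K2, H2-Q2, H2-Q6, H2-Q7, H2-Q10, H2-T22 and H2-T24 differed from it at 1 base, H2-Q4 and H2-Q5 at 2 bases, and H2-T10 and H2-T3 at 4 bases. A read covering it could therefore not be placed among 5 of these genes.

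The promoters were examined because several members were higher together in stretched skin. RefSeq windows of 250 bases before the gene start (GRCm38.p6) were matched for 37 members by symbol and not for the other 16. The windows of H2-K1 and B2m, the heavy and light chain of a class I molecule, and of the class II chain genes H2-Aa and H2-Eb1, which belong to different molecules, are shown. They lie at chr17:34000348-34000597 (minus strand), chr2:122147437-122147686 (plus), chr17:34287824-34288073 (minus) and chr17:34305617-34305866 (plus). Capitals mark motif matches on either strand.
H2-K1: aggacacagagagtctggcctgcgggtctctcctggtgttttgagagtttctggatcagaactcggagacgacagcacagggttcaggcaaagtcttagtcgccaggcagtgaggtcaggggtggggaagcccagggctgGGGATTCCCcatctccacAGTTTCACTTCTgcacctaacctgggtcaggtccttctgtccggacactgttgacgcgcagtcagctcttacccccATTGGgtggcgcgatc
B2m: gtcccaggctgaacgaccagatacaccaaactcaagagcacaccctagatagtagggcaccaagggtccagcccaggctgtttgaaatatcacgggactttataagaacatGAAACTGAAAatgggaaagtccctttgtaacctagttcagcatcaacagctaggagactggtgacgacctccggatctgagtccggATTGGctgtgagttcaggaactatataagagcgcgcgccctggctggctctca
H2-Aa: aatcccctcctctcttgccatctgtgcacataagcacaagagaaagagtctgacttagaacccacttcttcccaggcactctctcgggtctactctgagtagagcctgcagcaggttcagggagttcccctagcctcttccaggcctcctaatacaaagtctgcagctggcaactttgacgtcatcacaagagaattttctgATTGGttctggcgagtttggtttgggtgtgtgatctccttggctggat
H2-Eb1: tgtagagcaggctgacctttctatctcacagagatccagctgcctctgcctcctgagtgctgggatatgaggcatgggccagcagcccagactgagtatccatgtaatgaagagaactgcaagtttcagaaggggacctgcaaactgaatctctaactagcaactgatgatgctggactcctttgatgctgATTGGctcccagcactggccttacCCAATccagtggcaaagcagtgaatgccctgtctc
The kappaB motif GGGATTCCC was in the windows of H2-K1, H2-D1, H2-Q6 and H2-Q7, and in 0.301% of 32851 windows of that length. The class I interferon response motif, AGTTTC and TTCT with any 2 bases between them, was in those of H2-K1, H2-D1, H2-Q4, H2-Q6, H2-Q7, H2-Q10 and H2-M2, and in 0.189% of all windows. The 2 motifs did not overlap in H2-K1, where they began 110 and 92 bases before the start. A pair of GAAA with any 2 bases between was in the windows of B2m, H2-T23 and H2-T22, and in 2.98% of all windows. The gamma-activated motif TTCNNNGAA was in those of H2-DMb2, Psmb8, H2-M11 and H2-M3, and in 7.02% of all. The short CCAAT motif was in 32 of the 37 members' windows and in 33.8% of all windows. Of the 7 genes holding the class I interferon motif, H2-K1, H2-D1, H2-Q4 and H2-M2 had a counting interval above 0, H2-Q10 had one that included 0, and H2-Q6 and H2-Q7 were listed at 0. A match is a description of the letters, and binding was not measured.

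Of the 53 members, 34 exceeded 3 counts in one library or both and could be measured. Levels are given as CPM, the count scaled by the library total, or as FPKM, which also divides by exon length, where genes are compared with each other. The CPM of stretched skin was above that of control skin for 30 of the 34, against 38.5% of the 16255 genes measured. The interval of the ratio lay wholly above 0 on the log2 scale for 19 members, against 18.1% of genes measured. It lay wholly below 0 for 0 members, against 33.5% of genes. The median log2 ratio was 0.53 over the members and -0.12 over all genes measured.

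**Figure D1:**
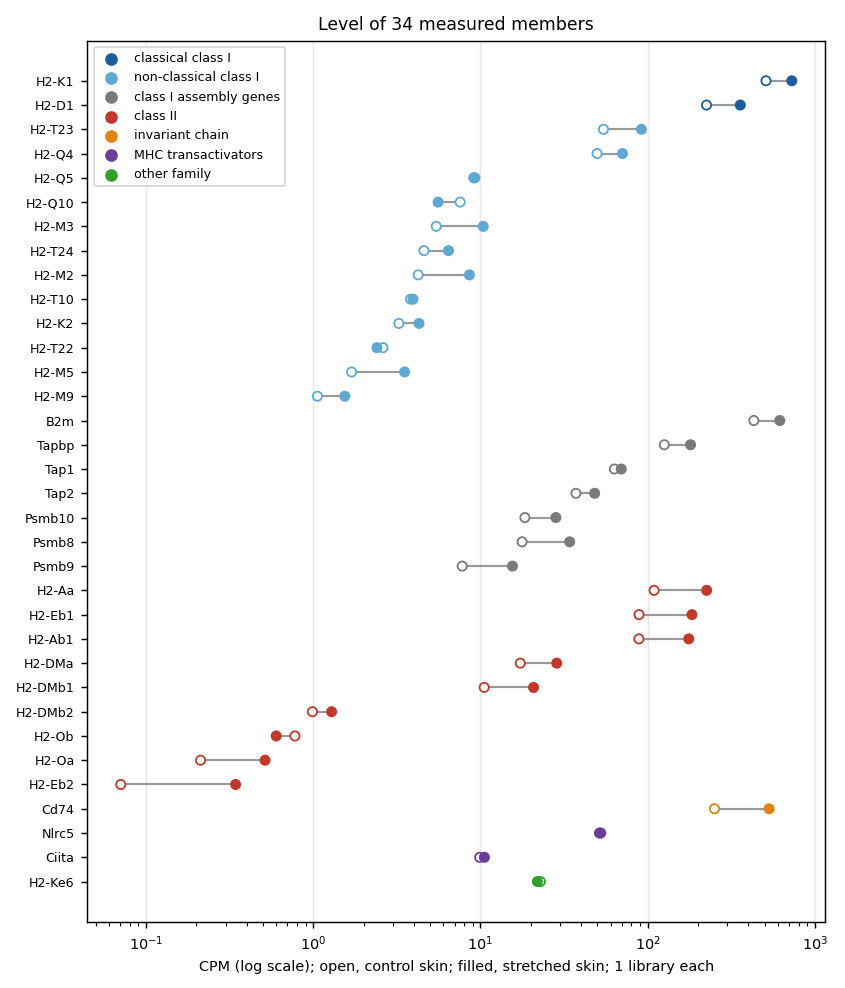
CPM of the 34 measured members in control skin (open circles) and stretched skin (filled circles), 1 library each, on a log axis and colored by class. H2-K1, B2m and Cd74 lie at the right end, and the filled circle lies to the left of the open circle only for H2-Q10, H2-T22, H2-Ob and H2-Ke6.

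Calls followed the filter and fold thresholds of the methods, except that FPKM was computed from the counts and a value of 1, which the methods do not state, was added. EV, the product of both FPKM values after adding 1 to each, had to exceed 10. The fold change on the same values then had to reach 2 for upregulated genes, or 0.5 or less for downregulated genes. Of the 24 members that passed the EV filter, Cd74, H2-Aa and H2-Eb1 were upregulated, and 0 were downregulated. Over all 10906 genes that passed it, 2.61% were upregulated and 2.43% were downregulated. H2-Ab1 lay just under the threshold, with a fold change of 1.96, and H2-Aa just above it, with 2.03. With each of the 4 other scalings of the libraries, H2-Ab1 was upregulated as well.

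The classical class I genes were both higher in stretched skin, by less than 2-fold. H2-K1 had 7217 counts in the control library and 8470 in the stretched one, or 510.0 and 727 CPM. Its log2 ratio was 0.51 (interval 0.47 to 0.56). H2-D1 had 3183 and 4168 counts, or 225 and 358 CPM, and a log2 ratio of 0.67 (0.60 to 0.74). The ratio was larger for H2-D1 than for H2-K1, by 0.16 on the log2 scale (0.08 to 0.24). The remaining classical gene, H2-L, was listed at 0 in both libraries, but GENCODE M21 has no entry under this symbol. Summed, the classical genes had 10400 counts in the control library and 12638 in the stretched one, a ratio of 1.48.

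B2m, the light chain of class I molecules, had nearly the same ratio as H2-K1. It had 6104 counts in the control library and 7181 in the stretched one, with a log2 ratio of 0.52 (0.47 to 0.56). The difference between H2-K1 and B2m was -0.0035 (-0.07 to 0.06). By FPKM, B2m had the highest level of the members in both libraries, at 502 and 717, and H2-K1 stood at 174 and 247. H2-K1 was 54.2% of the summed class I heavy chain FPKM in the control library and 52.1% in the stretched one, and H2-D1 was 27.2% and 29.2%.

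Of the 7 genes of class I assembly, 6 had an interval above 0, against 18.1% of all genes measured. The immunoproteasome genes had the larger ratios. The immunoproteasome subunits Psmb8, Psmb9 and Psmb10 replace catalytic subunits of the constitutive proteasome and change the peptides it makes. Psmb8 had 251 counts in the control library and 398 in the stretched one, with a log2 ratio of 0.95 (0.71 to 1.18). Psmb9 had 110 and 181 counts (0.999, 0.65 to 1.35), and Psmb10 had 261 and 329 (0.61, 0.38 to 0.85). All 3 intervals lay above 0. The constitutive counterparts Psmb5, Psmb6 and Psmb7 had log2 ratios of 0.03, 0.04 and -0.00098, and each interval included 0. With TMM, median of ratios or the upper quartile, all 3 intervals lay above 0. The summed FPKM of the immunoproteasome subunits was 0.0894 of that of their counterparts in the control library and 0.149 in the stretched one. The difference in summed counts was 0.81 on the log2 scale (0.64 to 0.97).

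The peptide transporter differed from the immunoproteasome, although its genes lie beside those of Psmb8 and Psmb9. Tap1 had 895 counts in the control library and 810 in the stretched one, and its log2 ratio of 0.14 had an interval that included 0 (-0.0020 to 0.28) and lay above 0 with each other scaling. Tap2 had 527 and 561 counts, with 0.37 (0.20 to 0.55). Psmb9, which starts back to back with Tap1, exceeded it in log2 ratio by 0.86 (0.48 to 1.24), and Psmb8 exceeded Tap2 by 0.57 (0.28 to 0.87). Tapbp, which encodes tapasin, had 1779 and 2102 counts, with 0.52 (0.43 to 0.61). Of the exonic bases of Tapbp, Tap2 and Psmb8, 29.0%, 18.5% and 14.7% lie within exons of another gene, so that their reads may be shared.

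**Figure D2:**
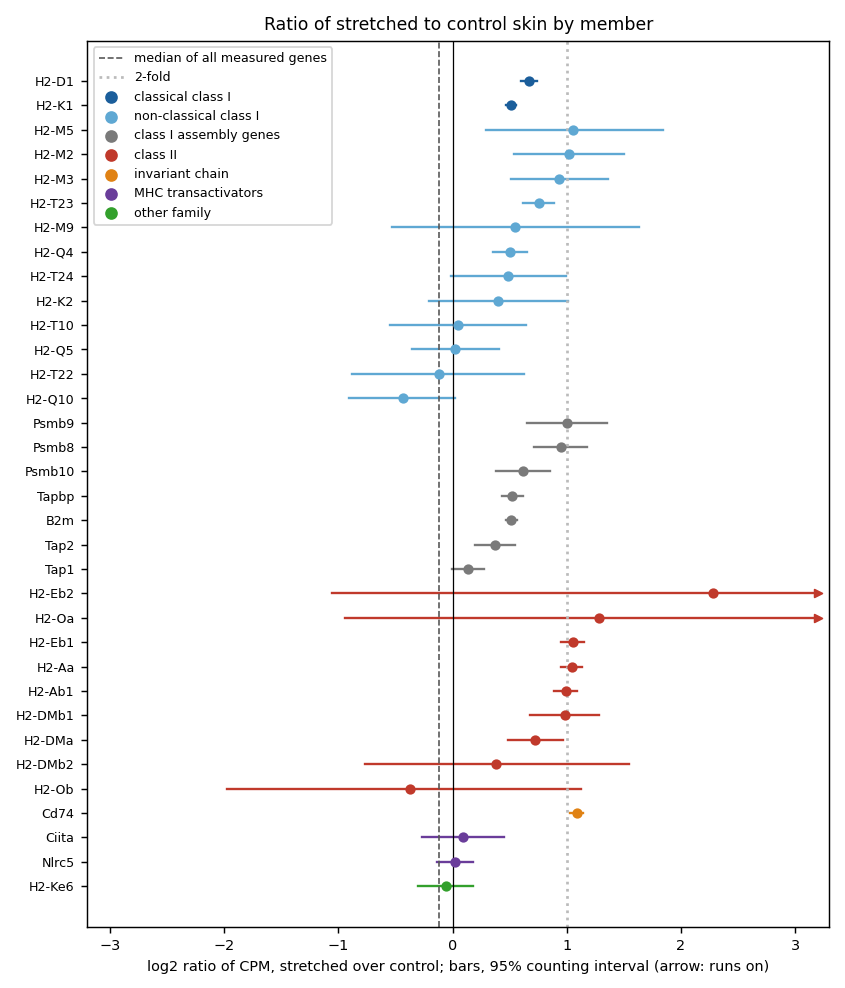
Log2 ratio of CPM, stretched over control, for the 34 measured members, with bars for the 95% counting interval and arrows where it runs on. The dashed line is the median of all genes measured (-0.12). With this total-count scaling only the bar of Cd74 lies wholly past the dotted line at 2-fold, against 2.41% of all genes measured.

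Among the 29 non-classical class I genes, 12 could be measured and 5 of these had an interval above 0, against 18.1% of all genes. The most abundant were H2-T23 and H2-Q4. H2-T23 encodes Qa-1, which presents leader peptides of other class I chains to receptors of natural killer cells. It had 770 counts in the control library and 1068 in the stretched one, with a log2 ratio of 0.75 (0.62 to 0.89), larger than that of H2-K1 by 0.24 (0.10 to 0.38). H2-Q4 had 705 and 823 counts, with 0.50 (0.36 to 0.65), which differed from H2-K1 by -0.0077 (-0.16 to 0.15). H2-T23 exceeded H2-Q4 by 0.25 (0.05 to 0.45).

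The M genes were at low levels, and H2-M5, H2-M2 and H2-M3 had the largest ratios of the measured non-classical genes. H2-M3, which presents formylated peptides of bacteria and mitochondria, had 77 counts in the control library and 121 in the stretched one, with a log2 ratio of 0.93 (0.51 to 1.36). H2-M2 had 60 and 100 counts (1.02, 0.54 to 1.504), and H2-M5 had 24 and 41 (1.05, 0.29 to 1.84). H2-M9 had 15 and 18 counts, and its interval included 0 (0.54, -0.53 to 1.64). Summed over the 12 M genes, of which 4 could be measured, the log2 ratio was 0.95 (0.67 to 1.23). H2-M1, H2-M11 and the 6 genes H2-M10.1 to H2-M10.6 were listed at 0 in both libraries. The M1 and M10 genes are known from sensory neurons of the vomeronasal organ.

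The remaining measured Q and T genes had ratios on both sides of 0, but with total-count scaling each interval included 0. H2-Q10, a secreted class I molecule known from liver, had 107 counts in the control library and 65 in the stretched one, with a log2 ratio of -0.44 (-0.91 to 0.02). Its log2 difference from H2-K1 was -0.95 (-1.42 to -0.49). H2-Q5 had 129 and 108 counts (0.02, -0.36 to 0.40). H2-T10 and H2-T22, ligands of some gamma-delta T cells, had 54 and 46 counts (0.05, -0.55 to 0.64) and 37 and 28 counts (-0.12, -0.88 to 0.63). Neither H2-T10 nor H2-T22 differed between the libraries beyond counting error. GENCODE M21 lists H2-T10, H2-Q5 and H2-Bl as polymorphic pseudogenes and H2-K2 as a transcribed pseudogene. Their counts therefore need not stand for a class I protein. H2-T24 had 65 and 75 counts (0.49, -0.01 to 0.99, above 0 with each other scaling) and H2-K2 had 46 and 50 (0.40, -0.21 to 1.01). The summed log2 ratio was 0.36 (0.23 to 0.49) for the 9 Q genes, of which 3 could be measured, and 0.68 (0.55 to 0.80) for the 6 T genes, of which 4 could be. H2-Q1 had 1 count in control skin, H2-Q2 had 1 and H2-T3 had 2 counts in stretched skin, and H2-Q6, H2-Q7, H2-Q8, H2-Q9, H2-T9 and H2-Bl were listed at 0 in both. Of these, H2-Q8, H2-Q9 and H2-T9 have no entry in GENCODE M21 either.

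The presenting chains of class II had larger ratios than the classical class I genes. H2-Aa and H2-Ab1 encode the alpha and beta chains of I-A, the class II molecule of this strain. H2-Aa had 1546 counts in the control library and 2624 in the stretched one, with a log2 ratio of 1.04 (0.95 to 1.14). H2-Ab1 had 1254 and 2050 counts, with 0.99 (0.89 to 1.09). The beta chain of I-E, H2-Eb1, had 1256 and 2143 counts, with 1.05 (0.95 to 1.15). The 3 chains differed from each other by less than the counting error, with 0.05 (-0.08 to 0.19) between H2-Aa and H2-Ab1 and 0.06 (-0.08 to 0.21) between H2-Eb1 and H2-Ab1. Transcripts of the I-E beta chain stood at 45.7 FPKM in the control library and 94.6 in the stretched one, whereas H2-Ea-ps, the pseudogene of its alpha chain, was listed at 0 in both. H2-Eb2 had 1 and 4 counts, a ratio of 4.86 with a log2 interval of -1.06 to 7.90.

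Cd74, the invariant chain that fills the groove of new class II molecules, had 3548 counts in the control library and 6196 in the stretched one. Its CPM was 251 and 532, and its log2 ratio of 1.09 (1.03 to 1.15) had an interval wholly past 2-fold. With total-count scaling Cd74 was the only member with such an interval, against 2.41% of all genes measured. With each of the 4 other scalings H2-Aa and H2-Eb1 had one as well, against 2.75% to 2.97% of all genes. The ratios of H2-Aa, H2-Ab1 and H2-Eb1 differed from that of Cd74 by less than counting error. The differences were -0.04, -0.10 and -0.03, with intervals that each included 0. By FPKM, Cd74 ranked behind B2m and H2-K1 among the members in control skin, and behind B2m alone in stretched skin. By CPM, which uses no exon length, Cd74 stayed below H2-K1 in stretched skin, at 532 against 727. The order of Cd74 and H2-K1 there thus depends on the exon length used.

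The DM molecule removes the remnant of the invariant chain, and DO restrains DM. H2-DMa had 245 counts in the control library and 333 in the stretched one, with a log2 ratio of 0.72 (0.48 to 0.97). H2-DMb1 had 149 and 242 counts (0.98, 0.68 to 1.28), and H2-DMb2 had 14 and 15 (0.38, -0.77 to 1.54). The DO chains, known mostly from B cells, were near the floor. H2-Ob had 11 and 7 counts (-0.37, -1.98 to 1.13), and H2-Oa had 3 and 6 counts, a ratio of 2.43 with a log2 interval of -0.95 to 3.91. Together the 5 DM and DO genes had a summed log2 ratio of 0.80 (0.61 to 0.98), against 1.03 (0.97 to 1.09) for the 5 presenting chains.

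Compared by the summed counts of all members, the 2 class I groups differed less from each other than either did from class II. Class II counts were 4479 in the control library and 7424 in the stretched one, a log2 ratio of 1.01 (0.96 to 1.06). The classical class I ratio was 0.56 (0.52 to 0.60), a log2 difference of -0.45 from class II (-0.51 to -0.38). Non-classical class I had 2090 and 2546 counts, with 0.57 (0.48 to 0.65), a difference of -0.44 from class II (-0.54 to -0.34). The difference between classical and non-classical genes was -0.0035 (-0.10 to 0.09). These differences do not depend on the scaling of the libraries. The medians over measured genes were 0.59 for classical class I, 0.50 for non-classical class I and 0.98 for class II. The sums are dominated by a few genes: without H2-K1 and H2-T23, the classical ratio exceeded the non-classical one by 0.23 (0.10 to 0.35). With genes left out that had 10% or more of their stretches in common with another gene, this difference was -0.20 (-0.32 to -0.08). Without the non-classical and class II genes near-identical to another member (10% or more of stretches within 2 mismatches), the order turned. Non-classical class I then differed from class II by -0.16 (-0.41 to 0.08), and classical from non-classical class I by -0.29 (-0.53 to -0.04).

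The transactivators of both pathways differed little between the libraries. Ciita, which drives class II transcription, had 140 counts in the control library and 123 in the stretched one, with a log2 ratio of 0.09 (-0.27 to 0.45). Nlrc5, its class I counterpart, had 729 and 610 counts, with 0.02 (-0.13 to 0.18). The ratio of Cd74 exceeded that of Ciita by 0.99 (0.63 to 1.36), and that of H2-K1 exceeded that of Nlrc5 by 0.49 (0.32 to 0.65). H2-Ke6 had 323 and 255 counts, with -0.06 (-0.30 to 0.18), which changed sign with every other scaling of the libraries, up to 0.05. Of its exonic bases, 86.4% lie within exons of another gene.

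Most members lie together on chromosome 17, which allowed a comparison with their neighbors. The interval from the first to the last of them spans chr17:33915899-37483552 (mm10) and holds 44 members and 158 other genes of the table. Of the members there, 29 could be measured, with a median log2 ratio of 0.54, 16 intervals above 0 and 0 below. Of the other genes, 104 could be measured, with a median of -0.06, 26 intervals above 0 and 27 below. Over all genes measured, 18.1% of intervals lay above 0 and 33.5% below. Upregulated genes were 2 of 20 members and 4 of 78 other genes that passed the EV filter, against 2.61% of all genes.

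**Figure D3:**
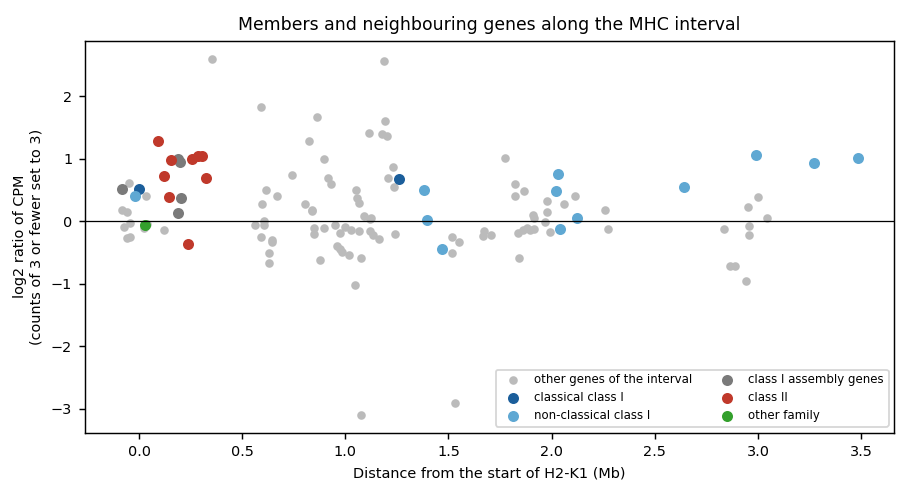
Log2 ratio of CPM, with counts of 3 or fewer set to 3, against distance in Mb from the start of H2-K1, for members (colored by class) and other genes (gray) of the MHC interval. The members lie mostly above 0 at both ends of the interval, and the other genes lie on both sides, with medians of 0.54 and -0.06.

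Near-identical copies were counted for the 38 H2 genes of the MHC families that have a transcript in GENCODE M21. In 22 of them, 10% or more of the 76-base stretches matched another member with at most 2 mismatches. The share was highest for H2-T10 (72.9%) and H2-T22 (72.3%), which match each other and have 164 identical bases in a row. It was 62.6% for H2-Q5, mostly against H2-Q7, 51.2% for H2-DMb1 and 42.1% for H2-DMb2, 34.7% for H2-Q4, 22.1% for H2-T23, 19.8% for H2-K1 and 17.2% for H2-D1. H2-Aa, H2-Ab1, H2-Eb1 and H2-DMa had 0. Of the 22 genes, 9 were listed at 0 in both libraries, among them H2-Q6 (40.3%) and H2-Q7 (42.2%), with 265 identical bases in a row. The values of the genes with such copies are uncertain, since how shared reads were counted is not given in the sources used here. Among non-classical genes, those under 10% had 241 counts in the control library and 357 in the stretched one, and a log2 ratio of 0.85 (0.61 to 1.09). Those at 10% or more had 1849 and 2189 counts and a ratio of 0.52 (0.43 to 0.61), and the difference was 0.32 (0.07 to 0.58).

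**Figure D4:**
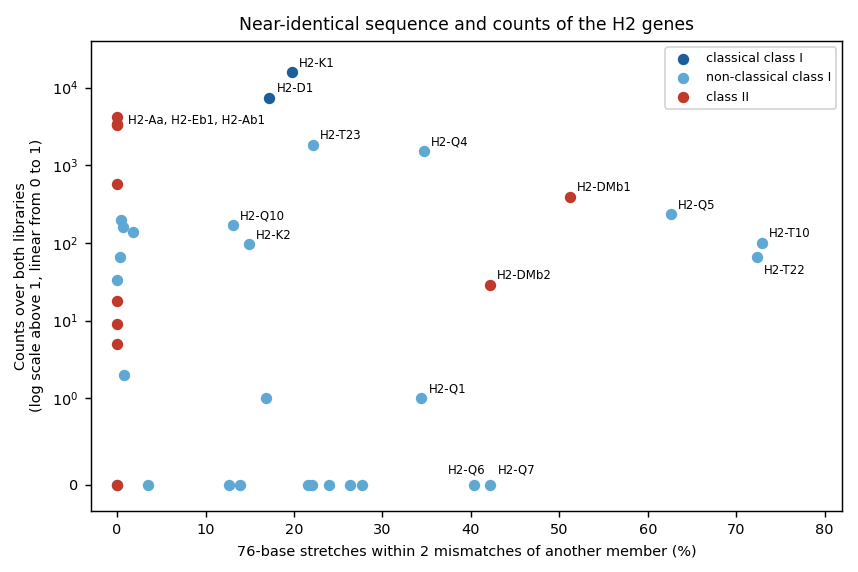
Counts over both libraries against the percentage of a gene's 76-base stretches that match another member with at most 2 mismatches, for 38 H2 genes colored by class. The presenting class II chains lie at 0%, the classical class I genes at 17.2% and 19.8%, and H2-T10 and H2-T22 at the right end above 70%.

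Other genes of the pathways were taken from lists. Over all genes measured, 18.1% had an interval above 0 and 33.5% below. With the other scalings these shares were 21.6% to 24.7% and 23.4% to 27.4%. Of all genes that passed the EV filter, 2.61% were upregulated. Of 13 genes of class I peptide supply and loading, 6 had an interval above 0 and 2 below (8 and 0 with each other scaling), and the median log2 ratio was 0.05. The largest was that of Tapbpl, a tapasin relative that edits peptides (261 counts in control, 280 in stretched skin, 0.38), and the smallest that of the glucosidase subunit Ganab (2791 and 2077, -0.15). Of 11 genes of class II processing, 9 had an interval above 0 and 2 below (9 and 0 with each other scaling), and 2 were upregulated. These were Ctss, the protease that degrades the invariant chain, with 680 counts in the control library and 2010 in the stretched one (1.84, 1.72 to 1.97), and Lgmn, which starts that degradation, with 1504 and 2951 (1.25, 1.16 to 1.34). The smallest was March8, a ubiquitin ligase (1123 and 832, -0.15).

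None of the 7 RFX, CREB and NF-Y genes, whose products bind class II promoters, had an interval above 0. The interval lay below 0 for 4 of them, against 33.5% of all genes measured, and the median log2 ratio was -0.25, against -0.12. With the other scalings 2 or 3 lay below 0, against 23.4% to 27.4% of all genes. Rfx5 was the highest (321 and 267 counts, 0.02) and Creb1 the lowest (982 and 598, -0.43). Of 10 genes of the interferon gamma axis, 9 could be measured and 6 had an interval above 0, against 18.1% of all genes measured. Irf8, a myeloid transcription factor, had 99 counts in the control library and 213 in the stretched one (1.39, 1.04 to 1.75), and Socs1, an inhibitor of the pathway, had 93 and 70 (-0.13, -0.60 to 0.33). Irf1 had 309 and 368 counts (0.53, 0.31 to 0.76). Ifng itself had 0 counts in the control library and 1 in the stretched one, both at or under the floor of 3 counts.

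Class I-like genes outside the H2 names did not share one direction. Of 9 listed, 7 could be measured, with 3 intervals above 0 and 2 below, against 18.1% and 33.5% of all genes measured. Hfe, which regulates iron uptake, was highest (253 counts in control, 408 in stretched skin, 0.97), and Procr, the endothelial protein C receptor, was the only one called downregulated (368 and 136, -1.16). Of 6 co-stimulation genes, which encode accompanying signals or their brakes on antigen-presenting cells, 5 had an interval above 0, against 18.1% of genes. Cd86 had 104 counts in the control library and 195 in the stretched one (1.19, 0.84 to 1.55), and Icosl had 224 and 198 (0.10, -0.18 to 0.39).

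Markers of macrophages and of leukocytes as a whole were also higher in stretched skin. For the counts of markers here and below, 18.1% of all genes measured had an interval above 0 and 33.5% below. Of all genes that passed the EV filter, 2.61% were upregulated. Macrophage markers summed to 665 CPM in the control library and 1539 CPM in the stretched one, with 7 of 8 intervals above 0 and 5 of 8 upregulated. The 5 upregulated had log2 ratios from 1.15 (Csf1r) to 2.68 (Fcgr1), all above the 1.09 of Cd74 (1.03 to 1.15), although the interval of Csf1r (1.06 to 1.23) overlapped it. Adgre1, a surface receptor of macrophages, had 472 and 1148 counts, and its log2 ratio exceeded that of Cd74 (-0.48 for Cd74 against Adgre1, -0.65 to -0.31). The 3 that were not upregulated had log2 ratios below that of Cd74, with 0.94 (0.86 to 1.03, overlapping that of Cd74) for Mrc1, 0.80 (0.67 to 0.92) for Cd163 and -0.12 (-0.37 to 0.12) for Mertk. Leukocyte markers summed to 119 and 308 CPM, with 4 of 4 above. Cd52, Laptm5 and Coro1a were upregulated, with log2 ratios of 1.69, 1.49 and 1.33 that were above that of Cd74. The fourth marker, Ptprc (CD45; 371 and 583 counts), had the lowest, 0.93 (0.74 to 1.12), and Cd74 differed from it by 0.15 (-0.05 to 0.35). Dendritic cell markers summed to 17.9 and 35.5 CPM, with 4 of 7 above. Those above were Itgax (47 and 152 counts), Ccr7 (3 and 29), Cd209a (107 and 126) and Flt3 (16 and 33). The intervals of Zbtb46 (0.28, -0.38 to 0.94), Clec9a (0.82, -0.38 to 2.07) and Xcr1 (-0.44, -1.40 to 0.48) included 0. The 2 Langerhans cell markers summed to 116 and 114 CPM, with 1 of 2 above. Most of the Langerhans cell sum is from Epcam (1505 and 1174 counts), which other epithelial cells also express. Cd207 (langerin) had 135 and 153 counts, with a log2 ratio of 0.46 (0.12 to 0.81). B cell markers were at or near 0, at 0.707 and 1.12 CPM with 0 of 4 above and Ms4a1 at 0 in both. T cell markers summed to 8.06 and 13.3 CPM (1 of 5 above). The marker above was Cd4 (15 and 56 counts), and the 4 others summed to 99 counts in each library. Natural killer cell markers summed to 2.26 and 4.89 CPM (2 of 3 above). The part of these cells in the ratios of the members was not tested. In whole skin, more cells of a type and more RNA per cell cannot be told apart.

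Markers of the main tissue compartments were summed in the same way. Keratinocyte markers summed to 13803 CPM in the control library and 14711 CPM in the stretched one (3 of 4 intervals above 0), endothelial markers to 166 and 225 CPM (3 of 4, with Kdr below at -0.37) and skeletal muscle markers to 15613 and 14107 CPM (2 of 5, with 3 below). Among the muscle markers Ckm was downregulated (-1.05) and Mb upregulated (1.09), and with TMM, median of ratios or the upper quartile 3 intervals lay above 0 and 2 below. Fibroblast markers summed to 26819 and 49616 CPM (5 of 5), most of it from the collagen genes Col1a1 and Col1a2. Without these, the other 3 summed to 1985 and 2127 CPM, a log2 ratio of 0.10 (0.07 to 0.12) against 0.89 for all 5.

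**Figure D5:**
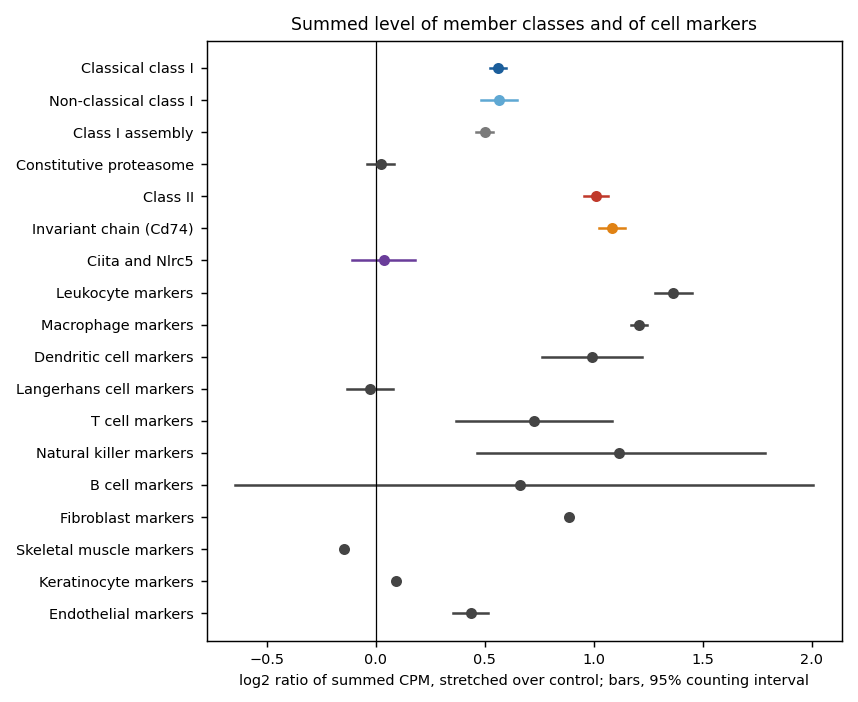
Log2 ratio of summed CPM, stretched over control, for the member classes (colored) and for the constitutive proteasome and cell marker lists (dark gray), with bars for the 95% counting interval. Class II (1.01) and Cd74 (1.09) lie between the class I groups (0.56 and 0.57) and the macrophage and leukocyte markers (1.21 and 1.37), and Ciita with Nlrc5 lies at 0.04.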

How the data were processed

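Per the methods, reads of 76 bases were filtered with the FASTX-Toolkit and mapped to mm10 with TopHat2. The authors deposited raw read counts per gene symbol. Which program counted them, on which annotation and with what handling of strand and shared reads is not given in the sources used here. The authors' FPKM values were not used. The members and gene lists were chosen with earlier results of these data known.

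CPM used the total counts (3 counts are 0.212 and 0.258 CPM). FPKM used the union of exons in GENCODE M21, matched by name (23384 genes) or synonym (645), and 392 genes had no length. Counts of 3 or fewer were set to 3 in medians. Differences between genes or sums carry an exact conditional 95% interval. Every member with more than 3 counts in at least 1 library is named. From each pathway list, the genes with the largest and smallest log2 ratio among those with at least 100 counts over both libraries are named, with others that a sentence on a member turns on. Near copies were matched over 76-base stretches, and protein identity was not analysed here. Calls and intervals were tested on data simulated with counting error alone, the error that the intervals assume. The simulation held no spread between animals and no reads shared between copies, so it could not test either. Alternatives were the size factors of DESeq2 1.42.0, the TMM factors of edgeR 4.0.16, the upper quartile, totals that leave out the 50 most counted genes, other filters and pseudocounts, and lists without genes with copies. Python 3.11.15, scipy 1.17.1 and R 4.3.3 were used.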

Additional observations from a re-analysis of the deposited data

How the results depend on the processing

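No paired analysis was possible because each condition has 1 library, and for the same reason none could be omitted. Of 80 alternative values of the class medians, sums, differences and counts, 49 stayed within the counting interval of the value reported, or within 1.5 times it for counts, and 31 moved past it. For a median, the interval used was that of the middle gene, or the mean interval of the middle pair. It is not the counting error of the median itself. None of the 80 changed direction, apart from the difference between classical and non-classical class I. Scaling by TMM, by median of ratios, by the upper quartile or by totals that leave out the 50 most counted genes raised every log2 ratio, by 0.10, 0.11, 0.10 and 0.06, and the median of all genes measured became -0.02, -0.0091, -0.02 and -0.06. In that order, the median of classical class I moved to 0.69, 0.70, 0.69 and 0.65, the sum of classical class I to 0.67, 0.67, 0.66 and 0.63, and the sum of class II to 1.11, 1.12, 1.11 and 1.07. With the first 3 scalings, the median of class I assembly genes moved to 0.62, 0.63 and 0.62, and the sum of non-classical class I to 0.67, 0.68 and 0.67. Under each scaling H2-Ab1 was also upregulated, 4 members in all, with 2.85% to 3.16% of all genes tested upregulated against 2.61% for total counts, and H2-Ke6 turned to 0.043, 0.051, 0.042 and 0.0040. With total-count scaling 1 member, Cd74, had an interval wholly past 2-fold, against 2.41% of all genes measured. With each other scaling 3 did, against 2.75% to 2.97% of all genes, a count chosen after seeing the data.

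Without the member with the most counts in each class, the sums moved to 0.67 for classical and 0.44 for non-classical class I. The differences moved to -0.32 (classical against class II), 0.23 (classical against non-classical) and -0.55 (non-classical against class II). With genes left out that had 10% or more of their stretches in common with another gene, the non-classical sum moved to 0.76, and the differences to -0.20 for classical against non-classical and -0.25 for non-classical against class II. Without the non-classical and class II genes near-identical to another member, an alternative chosen after seeing the data that kept H2-K1 and H2-D1, near-identical by the same rule, the non-classical median moved to 0.93 and the sum to 0.85, and the differences to -0.29 for classical against non-classical and -0.16 for non-classical against class II. Members with an interval above 0 numbered 19 with total counts, against 18.1% of all genes measured. They numbered 21 under each other scaling, against 21.6% to 24.7%, 21 with an interval above the median of all genes, against 25.3%, and 16 of the 24 that share under 10% of their stretches with another gene. Of 136 values of single members under other scalings, 110 stayed within the interval of the value reported.

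Depth limits the genes near the floor of 3 counts. In control skin these are 0.212 CPM, which sets no limit on genes listed at 0 that have near copies or no entry in GENCODE M21. Differences in H2-Oa, H2-Ob and H2-Eb2 were not detectable at this depth. How the authors' counter treated shared reads was not tested.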
